A study of Drosophila melanogaster and Drosophila simulans and Drosophila yakuba with 27 samples.

Results

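The 34 tetraspanin genes described here are the rows of the deposited expression table whose symbols begin with Tsp directly followed by a digit, out of 15439 rows in all. The thrombospondin gene, whose symbol is Tsp alone, is not among them. RNA sequencing was done on 3 dissected tissues of wandering third-instar larvae raised at 25 °C: the eye-antennal imaginal disc, which gives rise to the eye, antenna and head capsule, the wing imaginal disc, and the brain. Each tissue was taken from 9 Drosophila lines of 8 species, giving 27 libraries with 1 library for each line and tissue. The lines were D. melanogaster RAL-208 (genotype DGRP-208) and Canton S, D. simulans (Dsim\w[501]), D. yakuba (Dyak\wild-type), D. ananassae (Dana\In(3R)A), D. pseudoobscura (Dpse\wild-type), D. willistoni (Dwil\wild-type), D. mojavensis (labelled Dmow\wild-type) and D. virilis (Dvir\wild-type). The D. simulans line carries a white allele and the D. ananassae line an inversion, and the labels give no treatment for any line. Lines serve as the replicates of a tissue, and the tests take out each line's own level. Each p-value for a tissue difference therefore sets that difference against the variation left once line and tissue levels are removed. The lines share ancestry.

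Tetraspanins are small membrane proteins that cross the membrane several times and expose a large and a small loop to the outside. They gather with one another and with partners such as integrins and ADAM metalloproteases in patches of membrane, and they influence the trafficking, adhesion and cleavage of those partners. In Drosophila, Tsp3A, Tsp26A and Tsp86D belong to the class named TspanC8, which binds the protease Kuzbanian, the fly ADAM10, and promotes cleavage of the Notch receptor. Tsp2A is a component of smooth septate junctions, the barrier junctions of epithelia such as the midgut and the Malpighian tubules. Tsp42Ej, also called Sunglasses, is a lysosomal protein that takes part in rhodopsin degradation in photoreceptors.

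In the Ensembl annotation, release 115, 17 of the 34 genes lie in the Tsp42E cluster on chromosome arm 2R, which spans 73.4 kb and also holds 14 other genes. One of those is late bloomer (lbm), a tetraspanin gene under another name. The other 17 genes are spread over the arms, so that 2L holds 5 tetraspanin genes, 2R 19, 3L 4, 3R 3 and X 3. Some of the genes share exonic bases with a neighbour in that annotation, which may not be the one used for counting, and the sources used here do not say whether counting used strand. All exonic bases of Tsp42Eo lie within Tsp42Ep on the opposite strand, where they make up 30.7% of Tsp42Ep. Tsp42Ej and Tsp42Ek share 107 bases on the same strand, and all exonic bases of Tsp66A lie within CG42660 and CG42661. Tsp29Fa shares 53.6% of its exonic bases with an antisense RNA. Reads on bases shared on the same strand cannot be assigned to 1 gene in this annotation. On opposite strands, as for Tsp42Eo and Tsp29Fa, they can be only if counting used strand. For Tsp42Ep the gene constant of the deposited table, relative to that of Tsp42Ee, was 0.715 in RAL-208, where the exonic lengths give 1.98, so the overlap with Tsp42Eo may not apply to these counts.

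Of the 34 genes, 30 had a value in all 27 libraries. Tsp29Fa, Tsp42En and Tsp68C had no value in D. simulans, which is 8.82% of the tetraspanin genes where 21.2% of all genes lacked one. Tsp3A had no value in D. willistoni, which is 2.94% where 22.1% of all genes lacked one. In the other species every tetraspanin gene had a value, while 16.7% to 23.2% of all genes lacked one. Of the 30 complete genes, 21 passed the filter for testing, a signal of at least 1 in at least 9 libraries, and 9 did not: Tsp33B, Tsp42A, Tsp42Ec, Tsp42Eg, Tsp42Eh, Tsp42Eq, Tsp42Er, Tsp47F and Tsp66A. Of the 4 incomplete genes, 3 were tested in a fit that allows missing lines, and Tsp42En, at 0 to 3.00 over its 24 libraries, was under its filter. The 21 tested genes include 11 of the cluster and 10 from elsewhere.

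Library depth ranged over 3642547 to 12811084 counted reads in eye-antennal discs (median 11529899), 4114414 to 14308891 in wing discs (median 10938286) and 4943047 to 20473119 in brains (median 9690840). The deposited values are reads divided by a constant of the gene and by a factor of the library. In RAL-208, where it was checked, the constant was within 2-fold of exonic length for 24 of 25 tetraspanin genes, the exception being Tsp42Ep, and the constants differ between species. Levels set between genes or species are therefore per length only approximately. The tissue labels were read against marker genes. Summed signal of 5 eye genes was 318 to 664 in eye-antennal discs, where wing discs held 2.66% to 12.6% of the same line's eye-antennal sum. Summed signal of 4 wing genes was 247 to 458 in wing discs, and eye-antennal discs held 1.94% to 15% of that. Summed signal of 5 neuron genes was 231 to 562 in brains, where eye-antennal discs held 9.97% to 40.9% and wing discs 3.39% to 9.3%. Of 4 ring gland genes, eye-antennal discs held 50.7% to 234% and wing discs 1.27% to 48% of the brain sum. The samples are bulk tissue, so fewer cells of a type and less RNA per cell cannot be told apart.

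Tsp42Ee, the fifth gene of the cluster, had the highest median signal of the family in each tissue. Its signal had a lowest, median and highest value over the 9 lines of 326, 490 and 636 in eye-antennal discs, 289, 406 and 566 in wing discs, and 312, 458 and 541 in brains. It made up 27.4% to 48.1% of the summed tetraspanin signal in eye-antennal discs, 24.9% to 50.4% in wing discs and 30.8% to 46.1% in brains. The tissues overlapped widely for this gene, and its level was also among the steadier ones across lines, with a mean SD among lines of 0.28 on the log2 scale, at the 12.2 percentile of all genes tested. By mean signal over all libraries, the next genes were Tsp39D, Tsp42Ea, Tsp97E, Tsp66E, Tsp96F, Tsp3A and Tsp86D. That order changed with tissue: Tsp42Ea had a median share of 11% of the summed tetraspanin signal in eye-antennal discs and 2.57% in brains, and Tsp97E 4.76% and 13.3%. The spread over lines exceeded the gaps between several neighbours. Tsp66E averaged 100.1 ± 21.8 and Tsp97E 73.1 ± 17.0 in eye-antennal discs (SD, n = 9), with overlapping ranges of 55.7 to 129 and 48.3 to 94.9. In all, 16 of the 34 genes had a mean signal of at least 10 over their libraries.

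**Figure D1:**
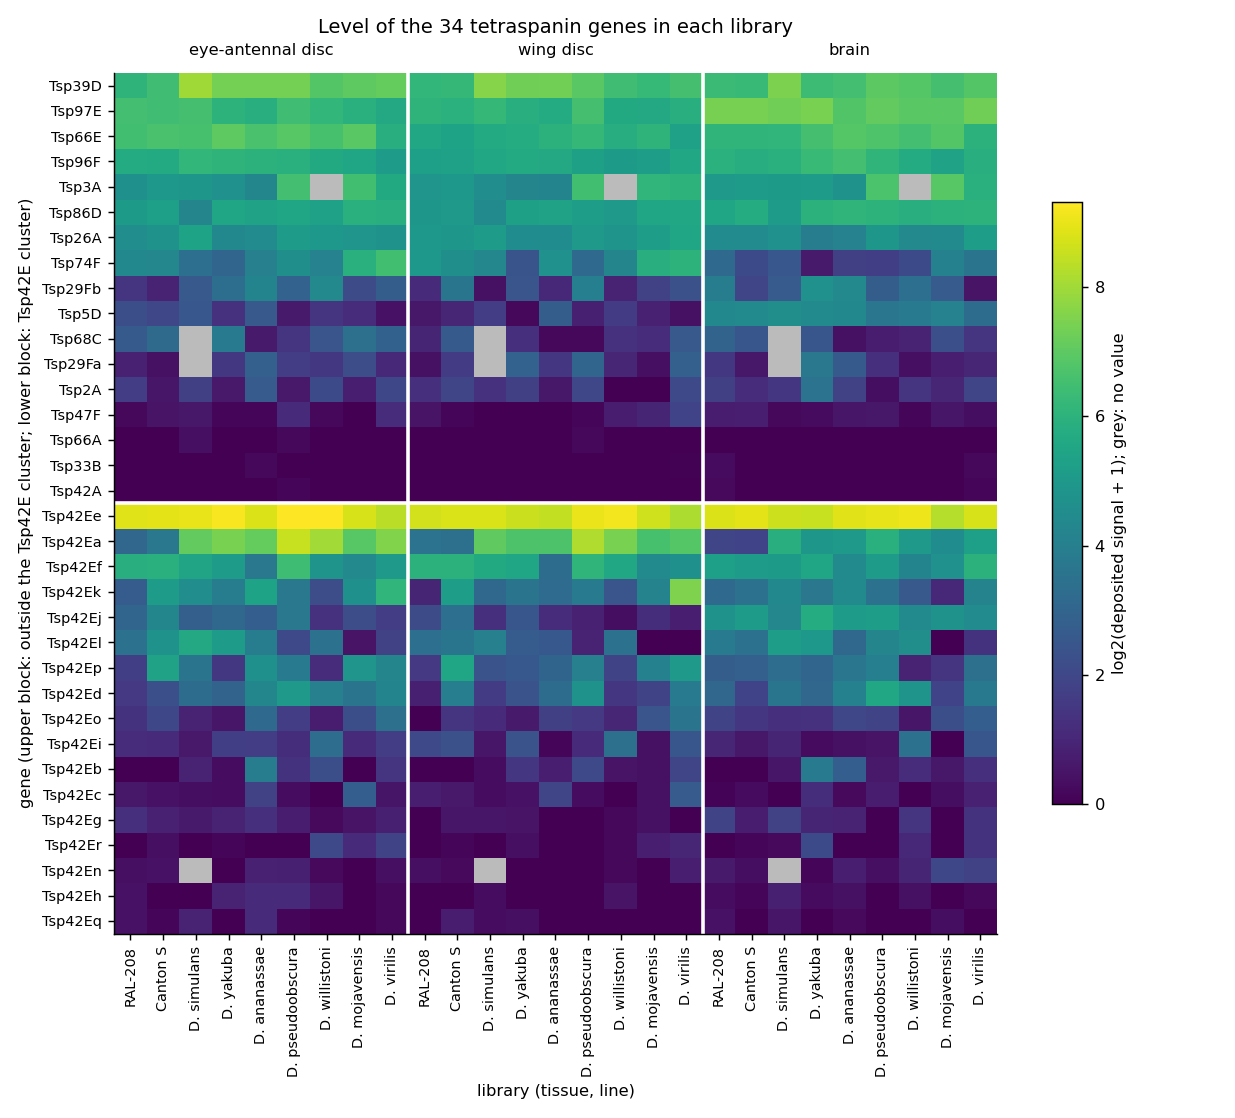
Heat map of log2(signal + 1) of the 34 tetraspanin genes (rows, the Tsp42E cluster in the lower block) in each of 27 libraries (columns, by tissue and line), with grey where a gene had no value. Tsp42Ee, at a signal of 289 to 636, is the brightest row in every tissue, and the dark rows at the foot of each block are genes that stayed near 0.

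Within the cluster the genes covered the whole range of levels in spite of lying side by side. Tsp42Ea stood at 155.6 ± 113.8 in eye-antennal discs (SD, n = 9), Tsp42Eb next to it at 2.47 ± 4.52 and Tsp42Ec at 1.16 ± 1.92. Tsp42Ed averaged 12.9 ± 9.22 there, Tsp42Ee 505.8 ± 102.3, Tsp42Eg 0.785 ± 0.410 and Tsp42Eh 0.472 ± 0.50. For Tsp42Eb, Tsp42Ec and Tsp42Eh the SD over lines was about as large as the mean or larger. Tsp42Eg had a smaller SD, but its range of 0.164 to 1.405 overlapped theirs, so the order of these low genes is not resolved. Tsp42Ef, between Tsp42Ee and Tsp42Eg, ran from 12.4 to 85.5 in eye-antennal discs, 8.89 to 67.9 in wing discs and 17.2 to 63.0 in brains. Farther along, Tsp42Ej, Tsp42Ek, Tsp42El and Tsp42Ep reached medians above 5 in at least 1 tissue, while Tsp42En, Tsp42Eq and Tsp42Er at the far end stayed at 3.24 or below in every library with a value.

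**Figure D2:**
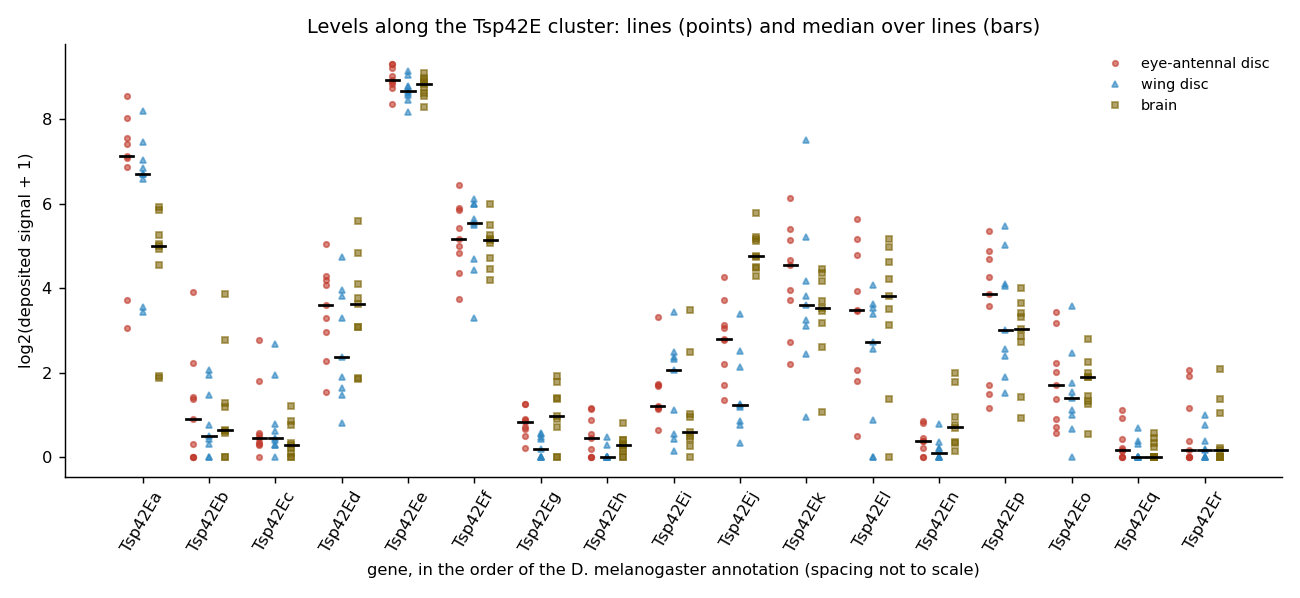
Log2(signal + 1) of the 17 genes of the Tsp42E cluster in their order along chromosome arm 2R (spacing not to scale), with a point for each line, a bar at the median and the 3 tissues side by side. Levels change from gene to gene, with Tsp42Ee at signals of 289 to 636 and Tsp42Eh at 1.23 or below, and for Tsp42Ej the brain points lie above all disc points.

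The eye-antennal disc against the wing disc addresses which genes set these related epithelia apart. Tsp66E, Tsp42Ej, Tsp42El, Tsp96F and Tsp42Ee were higher in eye-antennal discs, and no complete tetraspanin gene was lower, at an adjusted p or at an unadjusted p under 0.05. These are 5 of 21 tested genes, 23.8%, where 21.3% of all 7677 genes tested were called at adjusted p under 0.05 by limma, 15% as higher and 6.24% as lower. The median difference of the 21 genes was 0.30 on the log2 scale, beside 0.04 for all genes. In the fit that allows missing lines Tsp68C was higher too, 1 of 3 tetraspanin genes read from it, where 19.4% of genes were called, 14% as higher.

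Among these called genes, Tsp66E had the lowest adjusted p by limma. Its signal was 55.7, 98.0 and 129 (lowest, median and highest line) in eye-antennal discs and 39.6, 53.8 and 72.2 in wing discs. The ranges overlap between lines, but within each of the 9 lines the eye-antennal disc was higher. The difference was 0.87 (SE 0.08) on the log2(signal + 1) scale, 1.83-fold, with an adjusted p of 5.0e-08.

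Tsp42Ej (Sunglasses) was at 1.54, 5.99 and 18.3 in eye-antennal discs and at 0.266, 1.36 and 9.52 in wing discs. Canton S was the highest line in both tissues and D. willistoni the lowest, and 9 of 9 lines were higher in the eye-antennal disc. The difference was 1.26 (SE 0.24, adjusted p 0.00061). Tsp42El was at 0.416, 10.2 and 48.7 in eye-antennal discs and at 0, 5.59 and 15.9 in wing discs, where D. mojavensis and D. virilis were at 0. It was higher in 8 of 9 lines, by 1.11 (SE 0.31, adjusted p 0.0136), and the call was lost without D. yakuba.

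Tsp96F was at 33.4, 51.6 and 71.1 in eye-antennal discs and at 32.7, 38.9 and 50.7 in wing discs. Its difference of 0.36 (SE 0.10, adjusted p 0.0108) had the same direction in 8 of 9 lines. Tsp42Ee differed by 0.26 (SE 0.08, adjusted p 0.0315) and was higher in 9 of 9 lines. That call was lost when any 1 of 7 lines was left out, the exceptions being D. mojavensis and D. virilis. Tsp68C, over 8 lines, was at 0.60, 5.82 and 13.4 in eye-antennal discs and at 0.143, 1.35 and 5.22 in wing discs, a difference of 1.27 (SE 0.29, adjusted p 0.00389) in 8 of 8 lines. With no block Tsp42Ee, Tsp42El and Tsp96F lost their calls. Tsp42Ee and Tsp42El also lost theirs without either of 2 sets of lines. A set of 5, listed as having brain transcripts in a disc, held both D. melanogaster strains, D. simulans, D. mojavensis and D. virilis. No single cut-off on the neuron sums gives this set. The wing disc share was 9.3% in D. ananassae, left out, and 3.39% in RAL-208. The eye-antennal share was 25.4% in D. willistoni, left out, and 9.97% in D. virilis. A set of 4, D. simulans, D. yakuba, D. ananassae and D. virilis, had the highest eye shares in wing discs, 6.91% to 12.6%. Eye transcripts were in the other wing discs too, at up to 6.49% in D. mojavensis.

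Markers of other cell types moved with these results. Of neuron markers 5 of 5 tested were higher in the eye-antennal disc, with sums of 38.5 to 154 there and 14.3 to 52.3 in wing discs. Of ring gland markers 4 of 4 were higher (96.3 to 574, and 5.23 to 167 in wing discs), of muscle markers 5 of 6 (106 to 1030, and 18.5 to 303) and of glia markers 4 of 6 (155 to 295, and 114 to 214). Their part in the result was not tested.

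The eye-antennal disc against the brain separated the family further, in both directions. Tsp42Ea and Tsp74F were several-fold higher in eye-antennal discs, and Tsp39D, Tsp26A and Tsp66E were higher by less. Tsp5D and Tsp42Ej were several-fold lower there, and Tsp97E and Tsp86D were lower by less. These 9 of 21 genes are 42.9%, where 52.6% of all genes were called, 25.8% as higher and 26.8% as lower. In the wing disc against the brain 10 of 21 genes were called, 47.6%, where 60.2% of all genes were, 28.2% as higher and 32% as lower. There Tsp74F, Tsp42Ea and Tsp26A were higher in wing discs, and Tsp42Ej, Tsp5D, Tsp97E, Tsp42El, Tsp66E, Tsp86D and Tsp96F were lower. The median difference of the 21 genes was 0.07 for eye-antennal disc over brain and -0.38 for wing disc over brain, beside 0.00 and -0.02 for all genes. These comparisons share the brain libraries.

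Tsp42Ej, Tsp5D and Tsp97E were the genes whose disc and brain levels did not overlap over the 9 lines. These are 3 of 21 tested genes, and the same 3 were lower in each disc. Of all genes, 7.22% were lower without overlap in the eye-antennal disc and 10.8% in the wing disc (10.1% and 14.4% in either direction). The share of all genes lower without overlap in both discs at once was not computed, so that count has no matching background. Tsp5D was at 0.362, 1.64 and 5.15 in eye-antennal discs, 0.147, 0.811 and 5.72 in wing discs, and 8.82, 19.6 and 23.5 in brains. Every brain library was above every disc library. The differences were -2.54 for eye-antennal disc over brain (SE 0.21, adjusted p 6.2e-09, 5.80-fold lower) and -3.03 for wing disc over brain (SE 0.21, adjusted p 1.8e-10, 8.14-fold lower). These folds are of signal + 1 and understate the change of a gene this low. In the read counts of the D. melanogaster strains alone, by edgeR, the wing disc was lower by 23.4-fold. That value rests on 3 wing disc reads in RAL-208 and 19 in Canton S. It does not measure the understatement, because the lines and the test differ.

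Tsp42Ej was at 18.7, 26.2 and 53.7 in brains, above all of its disc values. The eye-antennal disc was lower than the brain by a log2 difference of -2.11 (SE 0.24, adjusted p 2.9e-07) and the wing disc by -3.37 (SE 0.24, adjusted p 1.8e-10). Tsp97E was at 48.3, 70.4 and 94.9 in eye-antennal discs, 48.4, 58.3 and 93.0 in wing discs, and 110, 157 and 172 in brains. Its differences were -1.0 for eye-antennal disc over brain (SE 0.10, adjusted p 5.2e-08) and -1.23 for wing disc over brain (SE 0.10, adjusted p 1.2e-09). Each of these 3 genes was lower in the disc in 9 of 9 lines.

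For these 3 genes tissue carried most of the variation over the 27 libraries, which their choice by ranges that do not overlap favours. The share of the total sum of squares that lay between tissues was 80.4% for Tsp5D, 78.7% for Tsp97E and 76.5% for Tsp42Ej. The median was 12.2% for the 21 tetraspanin genes and 12.6% for all genes. Those sets were not picked by overlap, so the gap is no further result. Neuron and glia markers moved with them. Neuron sums were 38.5, 114 and 154 in eye-antennal discs, 14.3, 24.1 and 52.3 in wing discs and 231, 441 and 562 in brains, and glia sums in eye-antennal discs were 26.9% to 52.6% and in wing discs 20.5% to 37.8% of those in brains. Their part in the differences was not tested.

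Tsp42Ea and Tsp74F had the opposite pattern, with higher levels in both discs. Tsp42Ea was at 7.38, 138 and 371 in eye-antennal discs, 9.90, 103 and 293 in wing discs, and 2.67, 30.8 and 59.5 in brains. Its ranges overlapped between tissues, with a D. melanogaster strain lowest in each, and within each line both discs were above the brain. The difference was 2.12 for eye-antennal disc over brain (SE 0.15, adjusted p 4.5e-10, 4.36-fold) and 1.80 for wing disc over brain (SE 0.15, adjusted p 1.4e-09, 3.49-fold). The wing disc call was lost with no block, where the spread between lines in level is not removed.

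Tsp74F was at 7.13, 19.1 and 90.1 in eye-antennal discs, 4.32, 23.9 and 64.5 in wing discs, and 0.60, 3.27 and 16.2 in brains. The ranges of the 2 discs overlapped widely, and each disc was above the brain in 9 of 9 lines. Its difference was 2.07 (SE 0.20) in both contrasts, with adjusted p-values of 4.9e-08 for eye-antennal disc over brain and 2.7e-08 for wing disc over brain. Trachea markers moved as well, 4 of 4 being higher in wing discs than in brains and 3 of 4 (serp, verm and pio) higher in eye-antennal discs, while trh was lower there by a log2 difference of -1.0. Their summed signal was 491 to 1110 in eye-antennal discs, 430 to 968 in wing discs and 78.7 to 223 in brains. Their part in the result was not tested.

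The other called differences against the brain were smaller. Tsp66E was at 63.2, 92.2 and 116 in brains, close to its eye-antennal levels and above its wing levels. It was higher in the eye-antennal disc by 0.19 (SE 0.08, adjusted p 0.0412, 7 of 9 lines) and lower in the wing disc by a log2 difference of -0.68 (SE 0.08, adjusted p 1.9e-07, 9 of 9 lines). The first of these calls was lost when any 1 of 6 lines was left out, the exceptions being D. ananassae, D. willistoni and D. virilis. The same call was also lost without the 5 lines listed for brain transcripts in a disc, and with no block. Tsp39D was at 65.9, 139 and 251 in eye-antennal discs, 70.7, 94.3 and 194 in wing discs and 77.0, 94.3 and 177 in brains. It was higher in eye-antennal discs than in brains by 0.36 (SE 0.12, adjusted p 0.0185, 7 of 9 lines). That call was lost without the 5 lines listed for brain transcripts, without the 4 highest in eye share in wing discs, and with no block.

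Tsp42El, at 0, 13.1 and 35.0 in brains, was lower in wing discs by a log2 difference of -1.11 (SE 0.31, adjusted p 0.0043, 7 of 9 lines). Its call was lost with no block and without the 4 lines highest in eye share in wing discs. Tsp68C, at 0.338, 2.75 and 6.8 in the brains of 8 lines, was higher in eye-antennal discs by 0.87 (SE 0.29, adjusted p 0.0192, 7 of 8 lines). It was 1 of 2 genes called among 3 in the fit allowing missing lines, where 49% of genes were called (24.1% as higher and 24.9% as lower), and the call was lost without D. willistoni.

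**Figure D3:**
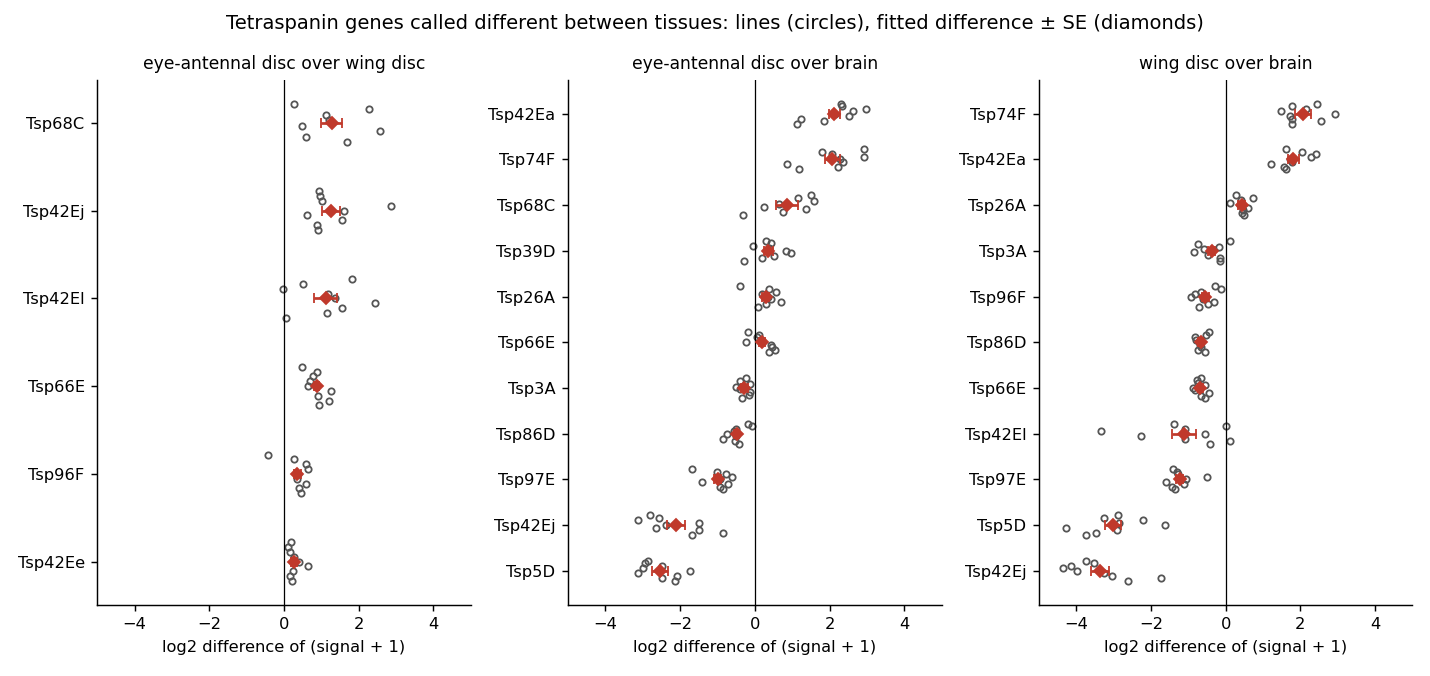
Log2 differences of (signal + 1) for the called tetraspanin genes, eye-antennal disc over wing disc, eye-antennal disc over brain, and wing disc over brain, with a circle for each line and a diamond with its SE for the fitted difference. Tsp5D and Tsp42Ej lie farthest on the lower side against the brain, down to -3.03 and -3.37, and Tsp42Ea and Tsp74F on the higher side, from 1.80 to 2.12.

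The 3 TspanC8 genes did not share a tissue pattern. Tsp86D was at 18.1, 39.8 and 59.0 in eye-antennal discs, 20.6, 36.2 and 46.5 in wing discs, and 33.3, 62.1 and 68.0 in brains. It was lower in the eye-antennal disc than in the brain by a log2 difference of -0.49 (SE 0.07, adjusted p 3.9e-06) and lower in the wing disc by -0.67 (SE 0.07, adjusted p 3.6e-08), in 9 of 9 lines each. Between eye-antennal and wing disc its difference of 0.18 missed the threshold (SE 0.07, adjusted p 0.0674).

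Tsp26A went the other way. It was at 19.5, 26.6 and 41.1 in eye-antennal discs, 21.9, 30.3 and 43.0 in wing discs, and 14.3, 21.4 and 35.5 in brains, with ranges that overlap widely. It was higher in the eye-antennal disc than in the brain by 0.29 (SE 0.09, adjusted p 0.0125, 8 of 9 lines) and higher in the wing disc by 0.43 (SE 0.09, adjusted p 0.00039, 9 of 9 lines), while eye-antennal over wing disc was -0.15 (SE 0.09, adjusted p 0.298). The eye-antennal call against the brain was lost with no block.

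Tsp3A, over 8 lines, was at 18.5, 29.7 and 92.6 in eye-antennal discs, 17.4, 29.2 and 89.9 in wing discs, and 26.5, 33.6 and 118 in brains. It was lower in the eye-antennal disc than in the brain by a log2 difference of -0.29 (SE 0.09, adjusted p 0.0167) in 8 of 8 lines, and in the wing disc by -0.38 (SE 0.09, adjusted p 0.0021) in 7 of 8 lines. It was the 1 of 3 genes called for wing disc over brain in the fit allowing missing lines, where 57% of genes were called, 30.7% as lower. The eye-antennal call was lost without D. ananassae, and eye-antennal over wing disc was 0.09 (SE 0.09, adjusted p 0.56).

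Of 10 genes for ADAM proteases and the Notch pathway, 9 were tested on the complete table. Against the wing disc, where 15% of all genes were higher and 6.24% lower, Tace, another ADAM protease, was higher in the eye-antennal disc by 1.80 and the Notch ligand gene Ser was lower, with a log2 difference of -1.27. Against the brain, where 25.8% of all genes were higher and 26.8% lower, Ser (1.5), the other ligand gene Dl (1.37), the ADAM gene Kul (0.74) and the presenilin gene Psn (0.17) were higher in the eye-antennal disc and Tace was lower (-1.90). In wing discs, where 28.2% of all genes were higher and 32% lower, Ser (2.77), Dl (1.32) and Kul (1.07) were higher than in brains, and Tace (-3.69) and kuz (-0.37), the gene of the TspanC8 partner Kuzbanian, were lower. Of 7 integrin genes, 6 were tested. Against the wing disc, ItgaPS4 was higher in the eye-antennal disc by 0.52 and mew lower by a log2 difference of -0.91. Against the brain 3 of 6 were higher in each disc, namely if (1.05), mew (0.77) and mys (0.58) in the eye-antennal disc and mew (1.68), if (1.25) and mys (0.64) in the wing disc.

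The tetraspanin genes under other names, lbm and TM4SF, were both tested. The gene lbm, which is known for synapse formation by motor neurons, lies inside the cluster and was at 8.24, 26.2 and 37.7 in eye-antennal discs, 0.890, 2.92 and 8.86 in wing discs, and 5.78, 14.3 and 22 in brains. TM4SF was at 0.288, 3.39 and 6.62 in eye-antennal discs, 0 to 7.68 in wing discs and 28.6 to 88.4 in brains, with both discs below every brain. Both were higher in the eye-antennal than in the wing disc (2.42 for lbm and 0.88 for TM4SF) and lower in the wing disc than in the brain (-1.85 and -4.59). Against the brain, TM4SF was lower in the eye-antennal disc by a log2 difference of -3.71.

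Tsp2A was low in all tissues, at 0.474, 2.20 and 5.34 in eye-antennal discs, 0, 1.52 and 3.13 in wing discs, and 0.261, 1.75 and 10.6 in brains. The tissues overlapped, and 2 wing disc libraries were at 0. Paired read counts were found for 24 of its libraries and ran from 0 to 110 with a median of 16, so its values rest on few reads. Its differences missed the threshold: 0.21 for eye-antennal over wing disc (SE 0.37, adjusted p 0.745), -0.18 for eye-antennal disc over brain (SE 0.37, adjusted p 0.711) and -0.39 for wing disc over brain (SE 0.37, adjusted p 0.39). The sign of the first changed without D. ananassae (-0.02) or D. willistoni (-0.03), and that of the second without D. yakuba (0.16).

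For Tsp2A, 65.7% of the variation lay neither between tissues nor between lines, and for Tsp29Fb 64.2% did, where the median was 18.4% for the 21 tetraspanin genes and 10.7% for all genes. After the tissue and line means were removed, the remaining deviations of Tsp2A over the 27 libraries went with those of its junction partners, with r = 0.86 for mesh, 0.65 for Ssk and 0.88 for hoka. They also went with Tsp42Eb (r = 0.87, rho = 0.71) and Tsp29Fb (r = 0.71, rho = 0.72). Tsp42Eb had r = 0.81 with mesh, 0.62 with Ssk and 0.81 with hoka, and Tsp29Fb had 0.82, 0.66 and 0.77 with the same genes. The points share libraries, and the values of these genes in the same library share its depth. D. yakuba brain was a high point for all of these genes but Ssk, with a signal of 10.6 for Tsp2A, 13.5 for Tsp42Eb, 25.1 for Tsp29Fb, 5.12 for mesh and 8.82 for hoka. Ssk was at 1.16 there, where its median over brains was 2.63 and its highest 6.39. Without the 2 libraries farthest from the median, r was 0.80 for Tsp2A with Tsp42Eb and 0.71 with Tsp29Fb. Gut markers (3 genes) summed to 54.1 in D. yakuba brain and to 1.44 to 21.7 in the other brains. The highest gut sum, 61.2, was in the D. yakuba wing disc, where the deviation was -0.02 for Tsp2A and -0.19 for Tsp42Eb. Over the 27 libraries Tsp2A had r = 0.47 with the gut markers, and 0.20 without the 2 farthest, and their part in these deviations was not tested. None of the 3 partner genes was called by limma in a tissue contrast, and none had an unadjusted p under 0.05.

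Tsp42Ek and Tsp42Ep also deviated together, with r = 0.84 and rho = 0.87 over the 27 libraries, and r = 0.82 without the 2 farthest. Tsp42Ek was at 3.64, 22.6 and 69.3 in eye-antennal discs, 0.937, 11.1 and 182 in wing discs, and 1.10, 10.5 and 20.9 in brains. Tsp42Ep was at 1.24, 13.6 and 40.2 in eye-antennal discs, 1.89, 7.0 and 43.2 in wing discs, and 0.890, 7.17 and 15.1 in brains. Wing discs held both the lowest and the highest value of Tsp42Ek, and no tissue stood apart for either gene. The deviations of Tsp42Ep went with the summed signal of 4 fat body genes (r = 0.89, 0.86 without the 2 farthest), and those of Tsp42Ek likewise (r = 0.80, 0.77 without the 2 farthest). Among single fat body genes, Tsp42Ep had r = 0.92 with Fbp1, 0.87 with Lsp2, 0.76 with Lsp1beta and 0.57 with Rfabg. Fat body sums ran from 82.7 to 7950 in eye-antennal discs, 341 to 9240 in wing discs and 136 to 2555 in brains, and their part in these deviations was not tested.

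Over all 210 pairs of the 21 tetraspanin genes the median r of the deviations was -0.003, and 6 pairs reached 0.6. Besides those named, these were Tsp26A with Tsp96F (0.73, 0.64 without the 2 farthest libraries), Tsp29Fb with Tsp42Ed (0.66) and Tsp42Ed with Tsp42Ek (0.60). Pairs with partner genes and with 10 marker lists were also read, and only some are named. Tsp97E had r = 0.81 with kuz (0.72 without the 2 farthest). With the summed neuron markers, r was 0.66 for Tsp96F and 0.65 for Tsp97E. With the summed trachea markers, r was 0.69 for Tsp42Ea and -0.62 for Tsp42Ej. Tsp5D had r = 0.65 with the summed hemocyte markers. All of these describe the same 27 libraries and were not tested.

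**Figure D4:**
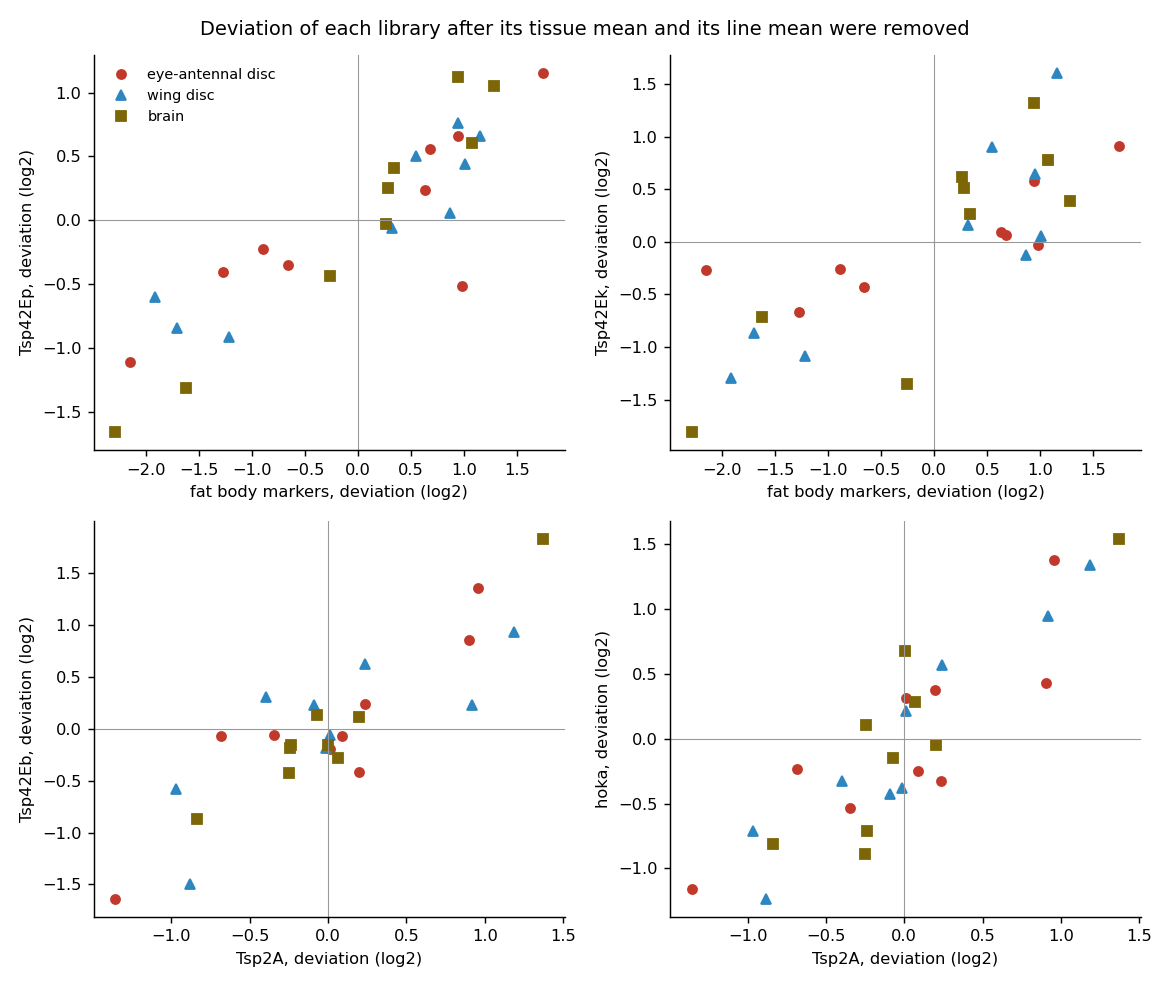
Deviations of log2 values from the line and tissue means in the 27 libraries, with tissues marked: Tsp42Ep and Tsp42Ek against summed fat body markers (upper panels), and Tsp42Eb and hoka against Tsp2A (lower panels). Points rise together, with r of 0.89, 0.80, 0.87 and 0.88, and a brain library, D. yakuba, lies at the upper end of both lower panels.

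Levels also differed between lines, and these differences are described without a test because gene constants and the identifiers of counted genes differ between species. Over the 21 tetraspanin genes the mean SD among lines had a median of 0.83 on the log2 scale, beside 0.50 over all genes. The share of variation between lines had a median of 58.0%, beside 66.7% over all genes. Tsp42Ea, with a mean SD of 1.69, was at 7.38 and 12.2 in the eye-antennal discs of the D. melanogaster strains RAL-208 and Canton S, against 117 to 371 in the other 7 lines. In wing discs it was at 10.7 and 9.90 in these strains, against 95.4 to 293, and in brains at 2.82 and 2.67, against 22.4 to 59.5. The strains lay below every other line in each tissue.

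The same was seen in reads. Tsp42Ea reads came to 2.29% to 3.62% of Tsp42Ee reads in the eye-antennal discs of the D. melanogaster strains, against 26.0% to 57.8% in the other 7 lines. In wing discs they came to 3.30% to 3.85%, against 23.6% to 55.0%, and in brains to 0.802% to 0.895%, against 5.87% to 14.2%. The length constant of Tsp42Ea relative to Tsp42Ee was 1.46 in the D. melanogaster strains and 0.978 to 0.996 elsewhere. The part of the gene model in the difference was not tested.

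Other genes stood apart in other lines. Tsp74F was at 58.9 in D. mojavensis and 90.1 in D. virilis eye-antennal discs, against 7.13 to 24 in the other lines, and these species were also highest in wing discs (58.1 and 64.5, against 4.32 to 30.2) and brains (16.2 and 11, against 0.60 to 8.04). Tsp42El was lowest in the same species, at 0.416 in D. mojavensis and 2.52 in D. virilis eye-antennal discs, 0 in the wing discs of both, and 0 and 1.60 in their brains. In the other 7 lines it was at 3.17 to 48.7, 0.851 to 15.9 and 7.78 to 35.0 in the same tissues.

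Tsp3A was at 92.6 in D. pseudoobscura, 89.5 in D. mojavensis and 49.8 in D. virilis eye-antennal discs, against 18.5 to 30.2 in the 5 lines from RAL-208 to D. ananassae. Tsp42Eb was at 0 in all 6 D. melanogaster libraries and reached 14.1 in D. ananassae eye-antennal discs. Tsp42Ei was at 8.94, 9.88 and 10.1 in the eye-antennal disc, wing disc and brain of D. willistoni, the highest line in each tissue. Tsp39D was lowest in a D. melanogaster strain and highest in D. simulans in all 3 tissues, at 251, 194 and 177 in D. simulans. Its gene constant relative to Tsp42Ee was 1.69 in the D. melanogaster strains and 1.02 to 1.04 elsewhere, and the part of the gene model was not tested.

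**Figure D5:**
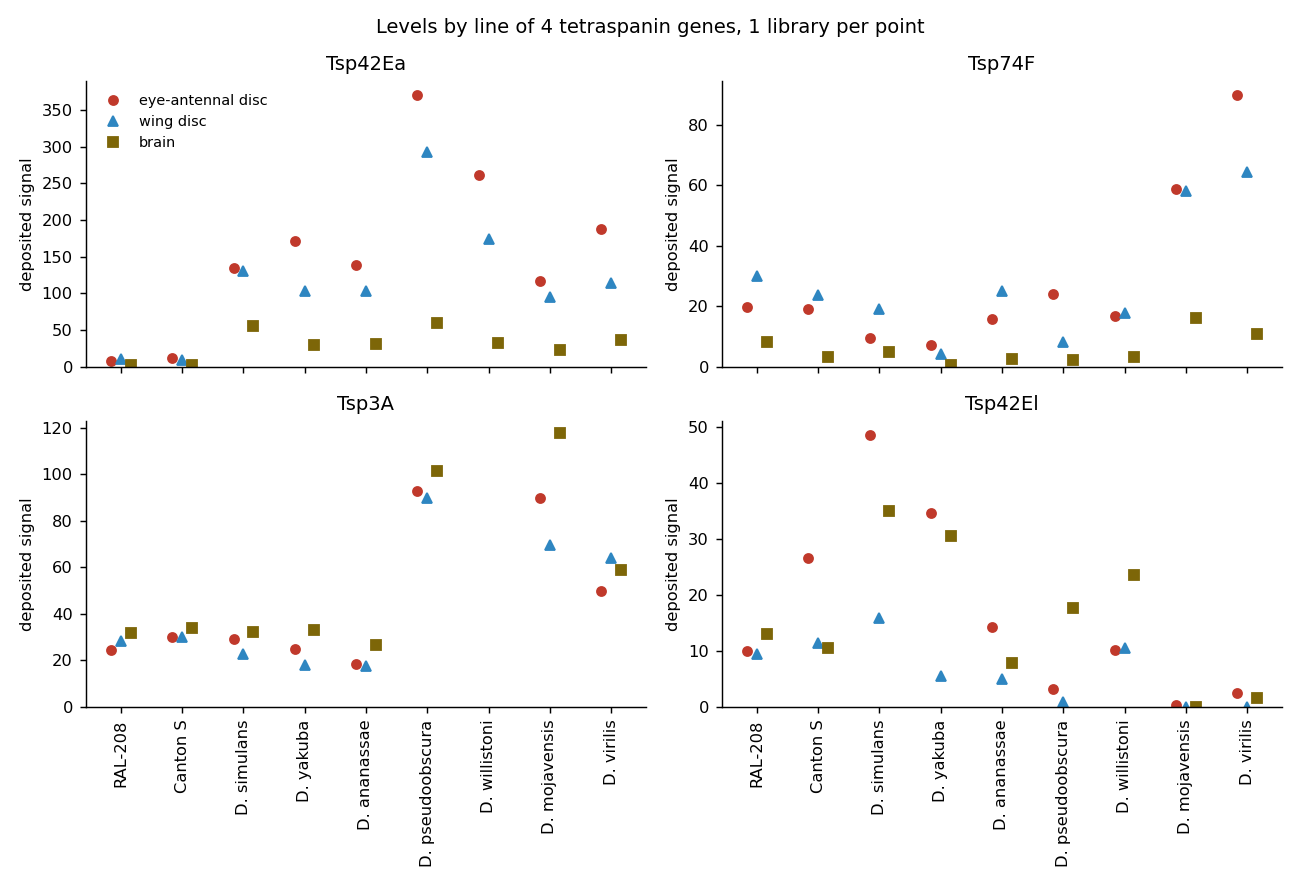
Deposited signal (linear axis) of Tsp42Ea, Tsp74F, Tsp3A and Tsp42El in each of the 9 lines, with 1 point for each library and a marker for each tissue. Tsp42Ea lies at 2.67 to 12.2 in the D. melanogaster strains and at 22.4 or above in every other line, Tsp74F is highest and Tsp42El lowest in D. mojavensis and D. virilis, and Tsp3A has no value in D. willistoni.

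Whether the tissue differences themselves changed with lineage was tested as an interaction, the melanogaster subgroup (both D. melanogaster strains with D. simulans and D. yakuba) against the other 5 lines. No tetraspanin gene was called by limma in the 3 contrasts, 0 of 21 each, where 0%, 0.0651% and 0.534% of all genes were for eye-antennal over wing disc, eye-antennal disc over brain and wing disc over brain. At an unadjusted p under 0.05 there were 2 in each. The lowest p was 0.00233 for Tsp5D (adjusted p 0.478), 0.000403 for Tsp66E (adjusted p 0.136) and 0.00477 for Tsp42Ej (adjusted p 0.161), in the same order of contrasts. With a pseudocount of 10, Tsp5D was called for wing disc over brain.

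The 2 strains of D. melanogaster share an annotation, so their read counts were compared directly, RAL-208 over Canton S with the 3 tissues as blocks. By edgeR 0 of 24 tested tetraspanin genes were called, where 0.295% of 9476 genes were, and 3 were at an unadjusted p under 0.05: Tsp42Ej, Tsp42Ep and Tsp42Ek. DESeq2 called 2, both lower in RAL-208, where it called 5.32% of genes and 1.98% as lower. Tsp42Ek had 53 reads in RAL-208 and 333 in Canton S eye-antennal discs, 3 and 394 in wing discs, and 124 and 109 in brains. Tsp42Ep had 18 and 326 reads in the same eye-antennal discs, 5 and 390 in wing discs, and 72 and 57 in brains. As CPM (reads scaled to the library size), Tsp42Ek was at 4.36 in RAL-208 and 26.9 in Canton S eye-antennal discs, 0.729 and 28.9 in wing discs, and 6.06 and 8.21 in brains. Tsp42Ep was at 1.48 and 26.3, 1.22 and 28.6, and 3.52 and 4.29 in the same order. RAL-208 was lower in all 3 tissues for both genes, with the smallest gap in brains.

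The strain difference was -2.35 for Tsp42Ek (SE 0.88, adjusted p 0.298) and -2.86 for Tsp42Ep (SE 1.02, adjusted p 0.283) by edgeR, and -2.59 (adjusted p 0.0460) and -3.06 (adjusted p 0.0156) by DESeq2. Over 10 alternatives the adjusted p ran from 0.0460 to 0.704 for Tsp42Ek and from 0.0156 to 0.705 for Tsp42Ep. Fat body sums differed in the same libraries, at 3375 in RAL-208 and 7947 in Canton S eye-antennal discs, 437.7 and 9241 in wing discs, and 1884 and 925.5 in brains. Their part in the difference was not tested.

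The same 6 libraries, tested as read counts with the strain as a block, cover 24 tetraspanin genes. Being part of the 27, they give no separate evidence for the tissue differences. Eye-antennal over wing disc gave 2 higher genes, Tsp5D (1.95, SE 0.37, adjusted p 0.0386) and Tsp66E (1.03, SE 0.11, adjusted p 0.00843), where 11.8% of genes were called and 10.2% were higher. Eye-antennal disc over brain gave 4 higher genes, Tsp74F (1.88), Tsp42Ea (1.82), Tsp42Ef (0.69) and Tsp66E (0.48), and 3 lower, Tsp5D (-2.60), Tsp42Ej (-1.35) and Tsp97E (-0.90), where 22.7% of genes were called, 10.1% higher and 12.6% lower. Without either eye-antennal library both counts were 0. Eye-antennal disc over brain had 3 calls without the RAL-208 brain and 1 without the Canton S brain. Wing disc over brain gave 11 called genes, where 40.3% of genes were called, 18.6% higher and 21.7% lower. The 5 higher were Tsp74F (2.40), Tsp42Ei (2.33), Tsp42Ea (1.98), Tsp42Ef (0.86) and Tsp26A (0.55), and the 6 lower ran from Tsp96F (-0.53) to Tsp5D (-4.55). Without the Canton S brain, or without either eye-antennal library, 6 were called.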

How the data were processed

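Signals and read counts came from larval RNA-seq libraries, 1 for each of 9 lines and 3 tissues. Per the submitters' processing notes, TopHat2 (2.0) and HTSeq (version not given) were used; the sources used here name no genome build or annotation. The authors deposited read counts per gene for each library and a table of normalised signal over all libraries. In that deposited table a signal was the read count divided by a constant of the gene and a factor of the library. In RAL-208, the line checked, the constant followed exonic length of the Ensembl annotation (Spearman rho 0.978 over 8887 genes in RAL-208, 98.9% of them within 2-fold of the median ratio), with Tsp42Ep as an exception, and it differs between species. Reads of other species carry other identifiers and were paired with the table by value (shares equal within 1e-06). In D. melanogaster 47 of 47 such pairs had the same identifier, and 230 of 302 pairs of tetraspanin gene and line were found. These reads give the precision behind low values; intervals were not computed.

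Tissues were compared with limma 3.58.1 (R 4.3.3) on log2(signal + 1), with trend and line as a block, over 7677 of 9832 complete genes with a signal of at least 1 in at least 9 libraries (16 residual degrees of freedom), and with p-values adjusted by Benjamini-Hochberg over all genes tested. A fold change on this scale understates the change of low genes. Genes missing in some lines were read from a second fit of 9488 genes on the lines they have, and the lineage interaction had 14 residual degrees of freedom. The block comes from line identity: the tissues of a line deviated together, with correlations of 0.625 to 0.863 over 27 pairs. D. melanogaster counts were tested with edgeR 4.0.16 (quasi-likelihood, TMM) over the 9476 genes that reached a CPM of 1 in 2 or more libraries, leaving 2 residual degrees of freedom, and with DESeq2 1.42.0 as an alternative. On simulated data for eye-antennal over wing disc, the tissue fit recovered 68.7% of log2 changes of 0.5 and 91% of changes of 1. The lineage fit recovered 85% of changes of 2 for the same contrast. The strain fit recovered 57% of changes of 1 and 99% of changes of 2. These shares describe simulated data and need not be the recovery in the real libraries. The strain simulation gave all genes the same dispersion and no tissue differences, so its recovery need not hold for more variable genes. In the data Tsp42Ek and Tsp42Ep differed by more than 2 between strains and were not called by edgeR. Deviations were correlated after removal of line and tissue means.

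Genes named are all called ones of each comparison (at most 6 in a direction by size), the 3 TspanC8 genes and Tsp2A. Genes with line patterns or correlated deviations, Tsp42Ek and Tsp42Ep among them, were chosen after their values were seen. The members and lists were chosen with earlier results of these data known. Alternatives changed the pseudocount, filter, scaling, block, test and the lines included.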

Additional observations from a re-analysis of the deposited data

Results flagged for a closer look

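A check for a library far from the others of its tissue was run on 72 groups of a tested tetraspanin gene and a tissue, and 3 groups (4.17%) met it, where chance flags about 1 in 20. Tsp2A in brain had its highest signal of 10.6 in D. yakuba, and the nearest line was at 2.85. Tsp42Ei in eye-antennal disc had its highest signal of 8.94 in D. willistoni, and the nearest line was at 2.33. Tsp66E in eye-antennal disc had its lowest signal of 55.7 in D. virilis, and the nearest line was at 88.2.

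A check for opposite directions in the melanogaster subgroup and the other lines flagged Tsp29Fa alone, out of 24 genes tested. How many would be flagged by chance was not computed. For eye-antennal disc over brain, every line of the melanogaster subgroup with a value (3 lines) was lower in the eye-antennal disc and every other line higher. The median log2 difference was -0.66 over the 3 subgroup lines and 0.42 over the other 5, a gap of -1.08 that was not tested. The subgroup values rest on few reads: 7 in the eye-antennal disc and 26 in the brain of RAL-208, 3 and 5 in Canton S, and 17 and 130 in D. yakuba. Tsp29Fa shares 53.6% of its exonic bases with an antisense RNA.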

How the results depend on the processing

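Depth limits the low genes most, Tsp2A, Tsp42Eb and Tsp5D among them, whose median paired reads were 11 to 21. Of 792 values of named tetraspanin genes under alternatives, 688 kept their direction and their side of the threshold, 95 lost the call, 4 gained one and 5 changed sign. No sign change was among the 676 values of called genes, and the cause of none was tested. Without the 5 lines listed for brain transcripts in a disc, Tsp26A was at 0.0072 for eye-antennal over wing disc. Without the 4 lines highest in eye share in wing discs, Tsp2A was at 0.013 for eye-antennal disc over brain. Leaving out 1 line, Tsp2A ran from -0.31 to 0.16 for eye-antennal disc over brain and from -0.027 to 0.41 for eye-antennal over wing disc.

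With no replicate block, so that lines are not paired, eye-antennal over wing disc had 2 calls in place of 5 (Tsp42Ej and Tsp66E), eye-antennal disc over brain 6 in place of 9 and wing disc over brain 8 in place of 10. By edgeR on read counts recovered for 14 tetraspanin genes, an alternative chosen after seeing the data, eye-antennal over wing disc had 3 calls. With a pseudocount of 10 the lineage interaction for wing disc over brain had 1 call, and DESeq2 had 2 for the strains. Setting library medians equal shifted the median of all genes by less than 0.1 and lost Tsp42Ee for eye-antennal over wing disc.

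Leaving out 1 line at a time gave 4 to 6 calls for eye-antennal over wing disc, 8 to 10 for eye-antennal disc over brain and 10 to 12 for wing disc over brain. The fit allowing missing lines gave 1 to 2 for eye-antennal disc over brain and 1 for the other contrasts, and the lineage and strain comparisons stayed at 0. In the D. melanogaster counts, leaving out 1 library gave 0 to 3, 0 to 9 and 6 to 10 calls in the same order of contrasts. Where a tissue was left with 1 library, that library was assumed to vary like the others.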
